A study of Homo sapiens with 4 samples.

Results

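The Hippo pathway core was followed in 143B cells through 10 genes: the coactivator genes YAP1 and WWTR1, the transcription factor genes TEAD1, TEAD2, TEAD3 and TEAD4, the kinase genes LATS1, STK3 and STK4, and the scaffold gene SAV1. They were chosen by gene symbol, and all 10 were found among the 11972 protein-coding genes of the deposited table. 143B is a human osteosarcoma line. Cells with a stable short hairpin RNA against FTO (shFTO, 2 libraries) were compared with cells of the same line carrying a control plasmid (shCtrl, 2 libraries), both grown with puromycin. FTO encodes a demethylase that removes N6-methyladenosine (m6A) from RNA, and the study's title places its knockdown in the context of Wnt signalling. The labels do not give the hairpin sequence or say whether the cells were a clone or a pool, and no label states that each library had its own culture. The p-values therefore set the difference between groups only against the spread of libraries within groups, and that spread may be technical.

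In the Hippo pathway, the kinases encoded by STK3 and STK4, held by the scaffold SAV1, phosphorylate and activate the LATS kinases. LATS kinases phosphorylate YAP (from YAP1) and TAZ (from WWTR1), which are then kept in the cytoplasm or degraded. Unphosphorylated YAP and TAZ do not bind DNA themselves but enter the nucleus and bind TEAD factors, which recognise the hexamer GGAATG near genes such as CTGF and ANKRD1. Much of this control acts on proteins, so RNA levels show the supply of the parts and not the activity of the pathway. YAP and TAZ are known as promoters of growth and migration in sarcoma cells.

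The letters that TEAD factors read are shown first, in windows from 250 bases before to 50 bases after a gene's start (RefSeq, GRCh38.p14, printed 5′ to 3′ on the gene's strand). Capitals mark GGAATG, which was searched on both strands. The YAP1 window is shown because it was the one member window with a match, and CTGF (now named CCN2) and ANKRD1 because they are textbook targets. They lie at chr11:102110197-102110496 (plus strand), chr6:131951323-131951622 (minus strand) and chr10:90921038-90921337 (minus strand).
YAP1: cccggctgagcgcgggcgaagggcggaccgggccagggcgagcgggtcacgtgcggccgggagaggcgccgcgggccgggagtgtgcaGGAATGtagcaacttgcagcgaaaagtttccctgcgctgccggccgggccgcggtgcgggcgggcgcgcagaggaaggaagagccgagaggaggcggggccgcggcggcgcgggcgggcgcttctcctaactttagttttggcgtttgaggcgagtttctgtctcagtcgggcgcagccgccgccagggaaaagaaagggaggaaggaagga
CTGF: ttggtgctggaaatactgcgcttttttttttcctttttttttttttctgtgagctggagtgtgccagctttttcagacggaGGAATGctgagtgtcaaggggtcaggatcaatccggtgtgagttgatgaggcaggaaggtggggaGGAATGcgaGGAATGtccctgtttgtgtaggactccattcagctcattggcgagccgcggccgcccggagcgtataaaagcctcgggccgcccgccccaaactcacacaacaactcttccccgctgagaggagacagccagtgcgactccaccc
ANKRD1: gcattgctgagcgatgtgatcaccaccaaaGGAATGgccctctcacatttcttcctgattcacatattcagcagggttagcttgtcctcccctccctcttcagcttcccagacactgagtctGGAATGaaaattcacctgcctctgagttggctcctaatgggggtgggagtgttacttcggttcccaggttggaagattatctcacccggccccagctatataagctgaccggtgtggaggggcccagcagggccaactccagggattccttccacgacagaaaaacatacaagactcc

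The match in the YAP1 window began 162 bases before the start site. Those in CTGF began 169, 104 and 95 bases before it, and those in ANKRD1 began 220 and 128 bases before it. Of the members, 7 were found in the RefSeq table with 10 windows, and 1 of these windows held a match. TEAD1, TEAD4 and STK3 had no window there and were not searched. Over the whole table, 14.0% of 35116 windows held one. Of the 22 genes on a list of YAP/TEAD targets, 16 were found, and 9 had a match in at least 1 window, against 16.7% of all genes in the table. A match describes letters and does not show binding.

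The TEAD factors themselves are close relatives, which matters for telling their transcripts apart. The 90 coding bases most alike in all 4 genes are printed next, in capitals where a TEAD1 base differs from at least 1 relative and, in the other lines, where the base differs from TEAD1 (GENCODE 29, GRCh38, coding strand). They lie at chr11:12764320-12764409 (plus), chr19:49359869-49359958 (minus), chr6:35486486-35486575 (minus) and chr12:2994878-2994967 (plus) in the order of the lines.
TEAD1: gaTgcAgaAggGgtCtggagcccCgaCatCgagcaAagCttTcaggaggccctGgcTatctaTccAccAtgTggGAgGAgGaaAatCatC
TEAD2: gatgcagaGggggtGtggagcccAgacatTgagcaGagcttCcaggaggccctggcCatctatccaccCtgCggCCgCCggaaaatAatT
TEAD3: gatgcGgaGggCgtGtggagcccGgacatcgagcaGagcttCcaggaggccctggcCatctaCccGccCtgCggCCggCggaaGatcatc
TEAD4: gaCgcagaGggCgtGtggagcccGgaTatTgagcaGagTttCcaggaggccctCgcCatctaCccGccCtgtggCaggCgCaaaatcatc

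All 4 stretches encode the same 30 residues, yet against TEAD1 they differ at 15 bases in TEAD2, 16 in TEAD3 and 18 in TEAD4. Between any annotated transcripts of TEAD1 and TEAD4, the longest run shared without a mismatch was 26 bases, and it was 14 bases with TEAD2 and 23 with TEAD3. The longest run shared by any TEAD pair was 56 bases, between TEAD3 and TEAD4. YAP1 and WWTR1 shared at most 21 bases and STK3 and STK4 at most 23, although 79.1% of aligned residues were identical in the kinase pair. The read length was not among the details read here, so how many reads were divided between relatives was not tested.

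The targeted gene checks the labels. FTO had 0.268 and 0.242 FPKM (fragments per kilobase, scaled to the fragments mapped in the library, so a level corrected for length) in shFTO, against 1.14 and 0.665 FPKM in shCtrl. Both shFTO libraries lay below both shCtrl libraries, and the mean in shFTO was 0.283 times that in shCtrl. FTO stayed under the filter on low values, and in a fit over all listed genes its difference did not pass (-0.59 on the log2(FPKM + 1) scale, limma adjusted p = 0.313). Each library summed to between 200555 and 212531 FPKM over the listed genes, and read depth is unknown. Across tested genes, log2(FPKM + 1) correlated at r = 0.959 between the shFTO libraries and 0.981 between the shCtrl libraries. Between groups r ran from 0.956 to 0.970, so the shFTO pair was less alike than the closest pair across groups. Of 8 mesenchymal and osteosarcoma markers, 7 were listed and summed to 488 and 451 FPKM in shFTO, against 394 and 410 FPKM in shCtrl. VIM held most of the sum, at 329 and 253 FPKM in shFTO, against 253 and 271 FPKM in shCtrl, with overlapping groups. FN1 lay higher in shFTO, at 43.0 and 89.0 FPKM, against 12.3 and 9.20 FPKM in shCtrl. SPARC lay lower, at 67.4 and 61.3 FPKM in shFTO, against 82.1 and 85.3 FPKM in shCtrl, and COL1A1 was also below both shCtrl libraries in both shFTO libraries. RUNX2, a defining factor of the osteoblast lineage, stayed at or below 0.577 FPKM in every library. Of 6 epithelial markers EPCAM alone was listed, at 2.43 to 4.46 FPKM, and of 4 endothelial markers none was. Of 5 leukocyte markers CD68 alone was listed, at 13.4 and 25.8 FPKM in shFTO, against 11.9 and 13.4 FPKM in shCtrl, so shFTO replicate 2 stood above the other 3 libraries. The part of these marker differences in the results was not tested.

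Among the 10 genes, TEAD1 and TEAD2 lay furthest from their control levels, and the differences of the other 8 ran from -0.33 (TEAD4) to 0.26 (WWTR1) on the log2(FPKM + 1) scale. TEAD1 was 5.22 times as high by mean FPKM in shFTO as in shCtrl, and TEAD2 1.86 times. TEAD4, the most abundant TEAD in shCtrl, was 0.791 times as high by mean. None of these differences passed the adjusted threshold, so they are given as values. All 10 genes passed the filter on low values (at least 1 FPKM in at least 2 libraries) and were tested by limma on log2(FPKM + 1), with Benjamini-Hochberg adjustment over 10873 genes. Of the 10, 0 had a limma adjusted p under 0.05, against 0.0276% of all genes tested (0.0092% higher and 0.0184% lower in shFTO). At an unadjusted p under 0.05 there were 2, TEAD1 and TEAD2, both higher, where 10.9% of all genes passed in either direction, 7.11% as higher and 3.74% as lower. Groups did not overlap for 5 of the 10 (4 with shFTO above, 1 below), against 42.6% of all genes tested (24.6% above, 18.1% below). That share is close to the background. The median difference was 0.08 over the 10 genes and 0.02 over all genes tested.

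**Figure D1:**
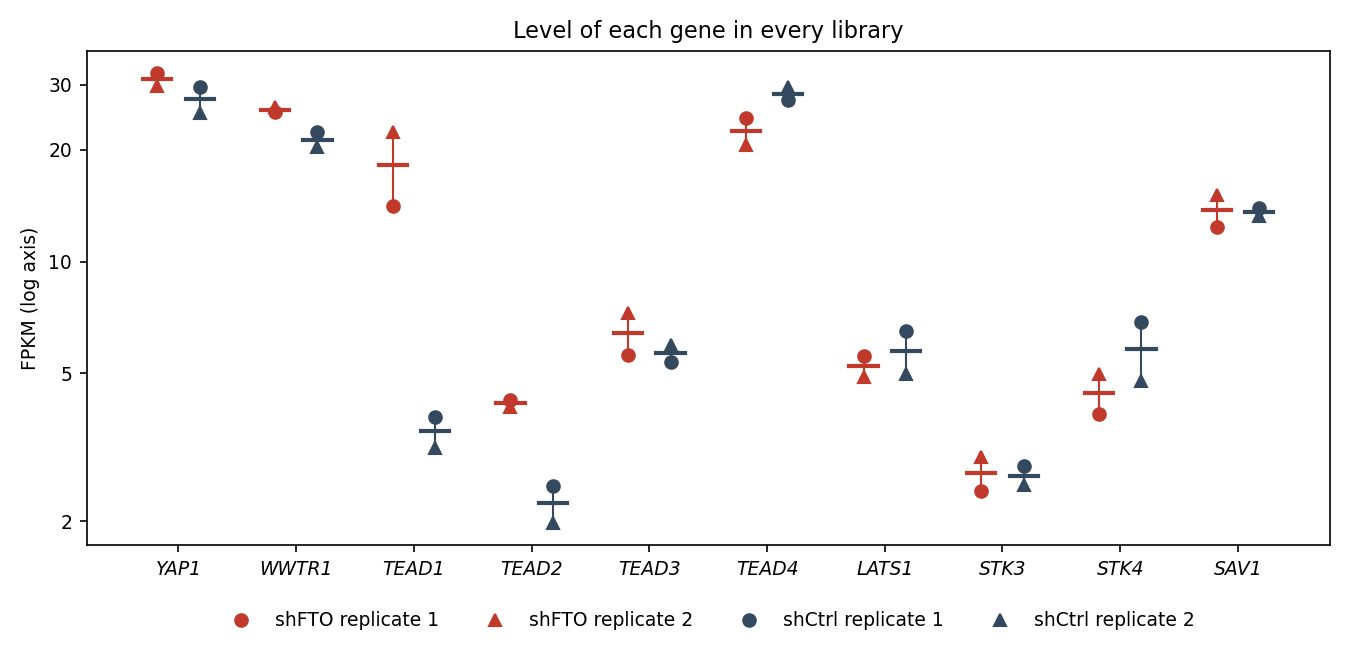
FPKM of the 10 genes on a log axis in each library; circles and triangles are replicates 1 and 2, and the horizontal bar is the group mean (n = 2). TEAD1 lay at 14.1 and 22.4 FPKM in shFTO, against 3.82 and 3.16 FPKM in shCtrl, the widest gap in the plot.

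TEAD1 (ENSG00000187079, chromosome 11, 12696138 to 12966030, plus strand, hg19) encodes the founding member of the TEAD family, a DNA-binding partner of YAP and TAZ that is also known for regulating muscle genes. It had 14.1 and 22.4 FPKM in shFTO, against 3.82 and 3.16 FPKM in shCtrl. Both shFTO libraries lay well above both shCtrl libraries, and they differed from each other by 1.59 times. Mean FPKM (± SD, n = 2 each) was 18.2 ± 5.85 with the FTO hairpin and 3.49 ± 0.468 with the control. On the log2(FPKM + 1) scale the groups differed by 2.07, with an SE of 0.24, a 95% interval of 1.46 to 2.67 and a limma adjusted p = 0.104. In bulk libraries, more cells that use the gene and more RNA of it per cell cannot be told apart, nor can fewer cells and less RNA per cell where a gene is lower. Ranked by signed difference, with genes highest in shFTO first, TEAD1 stood in place 5 of the 10873 genes tested. By unadjusted limma p (0.000182), in either direction, it stood in place 19. An exact two-sided permutation test of 1 gene cannot go below 0.333 with 2 libraries a group.

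The call on TEAD1 depended on which library was left out. Without shFTO replicate 1 the difference was 2.38 (limma adjusted p = 0.00148), and without shFTO replicate 2 it was 1.75 (limma adjusted p = 0.00726). With 1 shFTO library left, its variation was taken to equal that of the shCtrl libraries, and these fits called 429 and 217 of all genes. Without shCtrl replicate 1 it was 2.17 (limma adjusted p = 0.487) and without shCtrl replicate 2 it was 1.96 (0.491). In the authors' deposited table TEAD1 had p = 0.0249 and q = 0.515.

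TEAD1 has 0 listed genes that overlap it on its strand. Of 7 tested genes within 1 Mb of it, 3 were higher and the median difference was -0.03, with a range from -0.34 to 0.69 (log2(FPKM + 1)). The nearest, PARVA, which encodes a focal adhesion protein, had 5.57 and 6.60 FPKM in shFTO, against 8.30 and 7.54 FPKM in shCtrl. The neighbour at the top of that range, BTBD10, had 11.3 and 13.2 FPKM in shFTO, against 7.62 and 6.73 FPKM in shCtrl (difference 0.69, limma adjusted p = 0.280). The difference of TEAD1 was thus larger than that of any tested neighbour within this distance.

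TEAD2 (ENSG00000074219, chromosome 19, 49843852 to 49865714, minus strand), a factor known for its expression in the early embryo, had 4.25 and 4.06 FPKM in shFTO, against 2.49 and 1.98 FPKM in shCtrl. Both shFTO libraries lay above both shCtrl libraries, at a low level throughout. The difference was 0.68 (SE 0.16, 95% confidence interval 0.27 to 1.08, limma adjusted p = 0.286). With a pseudocount of 0.1 in place of 1 it was 0.87, since a pseudocount of 1 shrinks differences of low genes. Of 42 tested genes within 1 Mb of TEAD2, 34 were higher in shFTO. Their median difference was 0.15, with a range from -0.35 to 0.65. Over all genes tested, 53.8% were higher and the median was 0.02. Whether this region bears on the difference of TEAD2 was not tested.

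TEAD4 (ENSG00000197905, chromosome 12, 3068496 to 3149839, plus strand), known for its part in forming the trophectoderm of the mouse embryo, had 24.3 and 20.6 FPKM in shFTO, against 27.3 and 29.5 FPKM in shCtrl. Both shFTO libraries lay below both shCtrl libraries, so TEAD4 and TEAD1 lay on opposite sides of their controls. The difference was -0.33 (SE 0.15, 95% confidence interval -0.70 to 0.04, limma adjusted p = 0.497).

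TEAD3 (ENSG00000007866, chromosome 6, 35441374 to 35464853, minus strand), a factor known from the placenta, had 5.60 and 7.26 FPKM in shFTO, against 5.38 and 5.97 FPKM in shCtrl. The groups overlapped, and the difference was 0.15 (SE 0.18, 95% confidence interval -0.30 to 0.60, limma adjusted p = 0.804). Without shFTO replicate 2 it was -0.014.

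**Figure D2:**
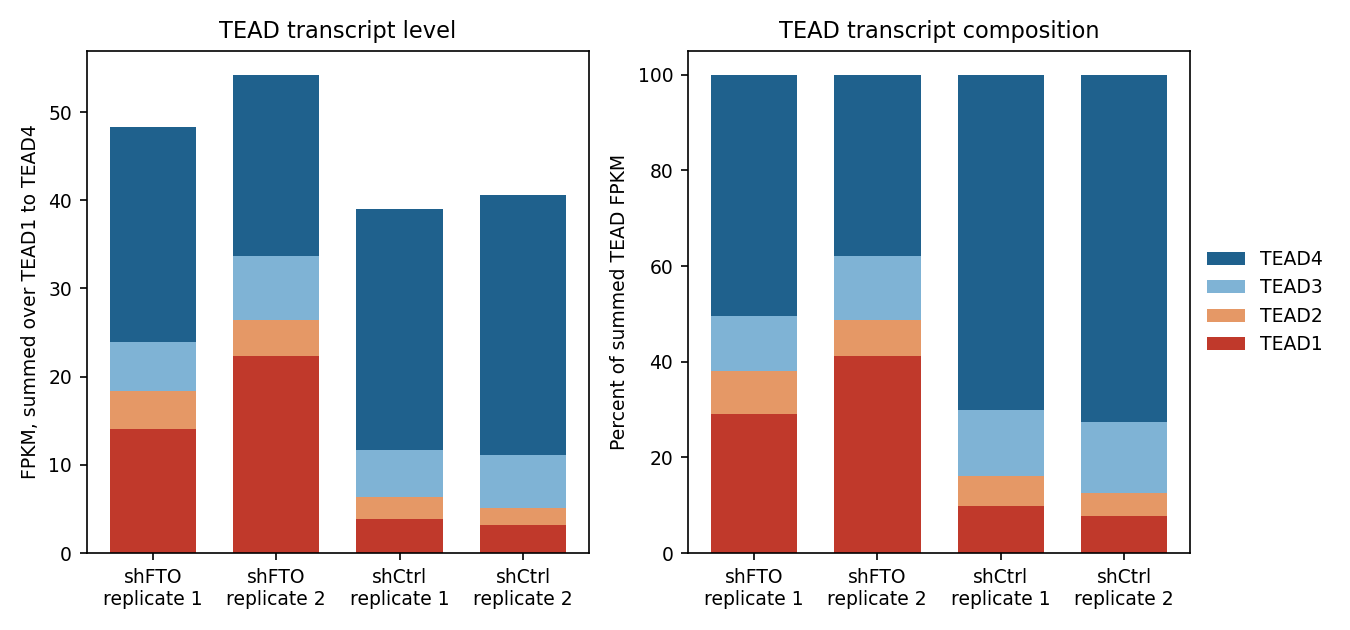
Left, FPKM of TEAD1 to TEAD4 stacked in each library; right, each gene's percent of that sum. TEAD1 made up 29.2% and 41.2% of the sum in the shFTO libraries, against 9.81% and 7.79% in the shCtrl libraries.

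The composition of the TEAD pool differed with TEAD1. TEAD1 made up 35.2% ± 8.51 of the summed TEAD FPKM in shFTO and 8.80% ± 1.43 in shCtrl (SD, n = 2 each). TEAD4 made up 44.2% ± 8.84 in shFTO and 71.3% ± 1.87 in shCtrl. These shares are ratios within a library, so the scaling between libraries cancels. TEAD1 reached 0.579 and 1.09 times the FPKM of TEAD4 in shFTO, against 0.140 and 0.107 times in shCtrl. In shFTO replicate 2 TEAD1 was therefore the higher of the pair, and in the other 3 libraries TEAD4 was.

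The summed FPKM of the 4 TEAD genes was 48.3 and 54.2 in shFTO, against 39.0 and 40.6 in shCtrl. Without TEAD1 the order was the other way round, at 34.2 and 31.9 FPKM in shFTO against 35.1 and 37.4 FPKM in shCtrl. No test was run on these sums and shares, because the genes were chosen with results known.

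The coactivator genes were among the most abundant of the 10. YAP1 (ENSG00000137693, chromosome 11, 101981192 to 102104154, plus strand) had 32.2 and 29.8 FPKM in shFTO, against 29.5 and 25.2 FPKM in shCtrl. Its shFTO libraries lay just above the higher shCtrl library. The difference was 0.18 (SE 0.15, 95% confidence interval -0.19 to 0.54, limma adjusted p = 0.707).

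WWTR1 (ENSG00000018408, chromosome 3, 149235022 to 149454501, minus strand), which encodes TAZ, had 25.3 and 26.1 FPKM in shFTO, against 22.3 and 20.3 FPKM in shCtrl. Both shFTO libraries lay above both shCtrl libraries by a gap wider than the spread within either group. The difference was 0.26 (SE 0.14, 95% confidence interval -0.08 to 0.60, limma adjusted p = 0.557). For both coactivators the interval leaves out a change of 1 on the log2 scale in either direction.

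YAP1 exceeded WWTR1 in every library, by 1.27 and 1.14 times in shFTO and by 1.32 and 1.24 times in shCtrl. Together they summed to 57.4 and 55.8 FPKM in shFTO, against 51.8 and 45.5 FPKM in shCtrl. Set against the TEAD sum, the coactivator sum was 1.19 and 1.03 times as high in shFTO, against 1.33 and 1.12 times in shCtrl. These ratios overlap between the groups, so the supply of coactivator transcripts per TEAD transcript did not separate them.

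**Figure D3:**
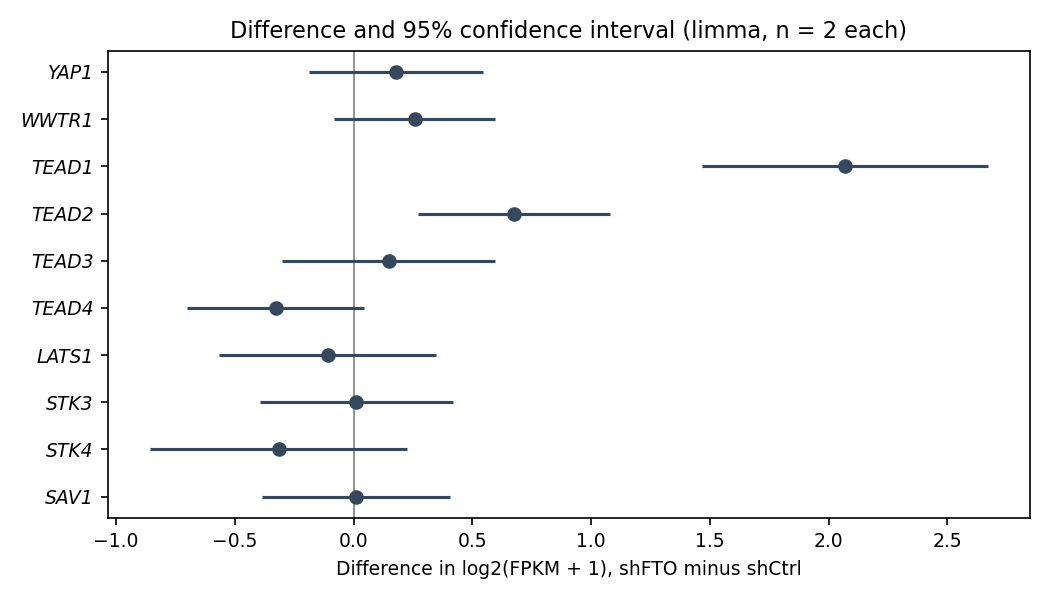
Difference in log2(FPKM + 1), shFTO minus shCtrl, for each gene, with its 95% confidence interval from limma (n = 2 each). The intervals of TEAD1 (1.46 to 2.67) and TEAD2 (0.27 to 1.08) lay above 0 before adjustment for the number of genes tested, and the other 8 crossed it.

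The kinases and their scaffold had overlapping groups in every case. LATS1 (ENSG00000131023, chromosome 6, 149979289 to 150039392, minus strand), the kinase that phosphorylates YAP and TAZ, had 5.57 and 4.89 FPKM in shFTO, against 6.53 and 4.98 FPKM in shCtrl. The lower library of each group stood at nearly the same level. The difference was -0.11 (SE 0.18, 95% confidence interval -0.57 to 0.35, limma adjusted p = 0.871), and without shCtrl replicate 1 it was 0.058.

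STK4 (ENSG00000101109, chromosome 20, 43595115 to 43708600, plus strand) encodes MST1, a kinase that activates the LATS kinases. It had 3.89 and 4.99 FPKM in shFTO, against 6.89 and 4.76 FPKM in shCtrl, and the difference was -0.32 (SE 0.22, 95% confidence interval -0.86 to 0.22, limma adjusted p = 0.641). Its shCtrl libraries differed by 1.45 times, which was the widest gap within a group for any gene of the set other than TEAD1.

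STK3 (ENSG00000104375, chromosome 8, 99413631 to 99955055, minus strand) encodes MST2, the close relative of MST1. It had 2.41 and 2.97 FPKM in shFTO, against 2.81 and 2.50 FPKM in shCtrl. The shFTO libraries lay on either side of the shCtrl pair, and the difference was 0.01 (SE 0.16, 95% confidence interval -0.40 to 0.42, limma adjusted p = 0.988). Its sign changed with both other scalings, to -0.067 with quantile normalization and -0.016 with median-ratio scaling.

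SAV1 (ENSG00000151748, chromosome 14, 51098776 to 51135049, minus strand), the scaffold that holds these kinases, had 12.4 and 15.1 FPKM in shFTO, against 13.9 and 13.2 FPKM in shCtrl. The shFTO values again enclosed the shCtrl values, and the difference was 0.01 (SE 0.16, 95% confidence interval -0.39 to 0.41, limma adjusted p = 0.989). It was -0.026 with median-ratio scaling. SAV1 overlaps ATL1, a listed gene on the opposite strand. Nothing read here states a strand setting for the counting, so reads of this pair may have been mixed.

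STK4 exceeded STK3 in every library, with STK3 at 0.618 and 0.595 times STK4 in shFTO and 0.408 and 0.525 times in shCtrl. The ratio lay higher in both shFTO libraries, by a gap smaller than the one between the shCtrl libraries. The kinase pair summed to 6.30 and 7.96 FPKM in shFTO, against 9.70 and 7.26 FPKM in shCtrl. The scaffold SAV1 thus stood above the sum of its kinases, per length, in every library.

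Ordered by mean FPKM in shFTO, the genes ran YAP1, WWTR1, TEAD4, TEAD1, SAV1, TEAD3, LATS1, STK4, TEAD2 and STK3. In shCtrl they ran TEAD4, YAP1, WWTR1, SAV1, STK4, LATS1, TEAD3, TEAD1, STK3 and TEAD2. TEAD1 took place 4 in shFTO and place 8 in shCtrl. In shFTO the libraries of neighbours in this order overlapped for TEAD4 with TEAD1, TEAD1 with SAV1, LATS1 with STK4, and STK4 with TEAD2. In shCtrl they overlapped for TEAD4 with YAP1, STK4 with LATS1, and LATS1 with TEAD3. Among all genes tested, the shCtrl mean of TEAD4 was at percentile 87.8, that of YAP1 at 87.4 and that of TEAD1 at 30.7.

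The pentamer GGACT, a common form of the sequence context in which m6A is placed, was counted on the sense strand of 1 annotated transcript per gene (GENCODE 29). The members held 0.325 to 1.18 copies per kilobase with a median of 0.965, and the median of 10801 tested genes was 0.929. TEAD1 had the fewest, 1 copy in 3075 bases, and 13.4% of tested genes had as low a density or lower. The other 9 members lay between the quartiles of all tested genes (0.549 and 1.40 per kilobase). The transcript was picked by its annotated rank as the main form of the gene and then by coding length. The length of its untranslated ends was not considered, so another transcript of TEAD1 could give another density. The TEAD1 transcript counted held 1071 coding bases, against 1341 in TEAD2, 1305 in TEAD3 and 1302 in TEAD4. These are counts of letters in an annotated transcript, and methylation was not measured here.

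The other genes of the pathway were taken from 6 lists, with 96 distinct genes tested. None passed the adjusted threshold (smallest limma adjusted p = 0.104). At an unadjusted p under 0.05 there were 15, of which 7 were higher and 8 lower, a share of 15.6% against 10.9% of all genes tested. As background for the counts by list, 53.8% of all genes tested had a positive difference, and their median was 0.02.

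**Figure D4:**
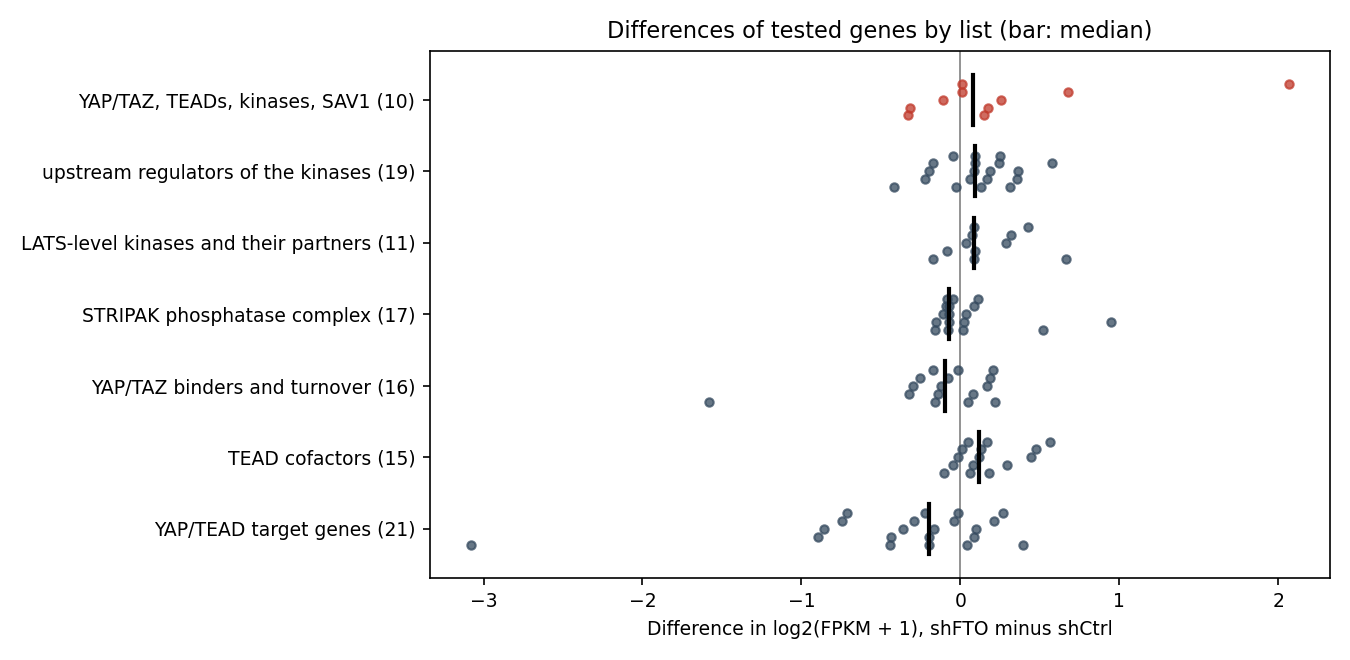
Difference in log2(FPKM + 1), shFTO minus shCtrl, of every tested gene by list, with the number tested in brackets and a bar at the median. TEAD1 stands at 2.07 on the top row, and ANKRD1 at -3.08 and AJUBA at -1.58 on the rows of targets and of YAP/TAZ binders.

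Upstream of the kinases, 13 of 19 tested regulators had a positive difference and 6 a negative one, with a median of 0.09. RASSF1, which binds and regulates the STK3 and STK4 kinases, had 12.5 and 17.4 FPKM in shFTO, against 8.86 and 10.3 FPKM in shCtrl (difference 0.58, limma adjusted p = 0.412). MARK4, a polarity kinase, had 3.45 and 3.78 FPKM in shFTO, against 2.36 and 2.83 FPKM in shCtrl, and it overlaps other listed genes on its strand. TAOK3, which belongs to a family that phosphorylates STK3 and STK4, had 2.85 and 3.10 FPKM in shFTO, against 4.43 and 4.16 FPKM in shCtrl (difference -0.41, limma adjusted p = 0.432). Groups did not overlap for 9 of the 19 tested regulators, and for 42.6% of all genes tested. The 9 included RASSF1, MARK4, TAOK3 and the cadherin gene DCHS1, whose difference was -0.22. These genes were named for having the highest or lowest differences on the list.

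At the level of the LATS kinases, 9 of 11 tested genes had a positive difference, with a median of 0.09. The count depended on single libraries. Without shFTO replicate 2 it was 4 and the median was -0.14, and without shCtrl replicate 2 it was 6 and the median 0.004. It was 10 without shFTO replicate 1 and 9 without shCtrl replicate 1. MAP4K3, from a family of kinases that can phosphorylate LATS in place of STK3 and STK4, had 8.90 and 10.4 FPKM in shFTO, against 6.02 and 5.36 FPKM in shCtrl (difference 0.67, limma adjusted p = 0.286). Its relative MAP4K4 had 24.5 and 28.2 FPKM in shFTO, against 20.8 and 17.9 FPKM in shCtrl (difference 0.43, limma adjusted p = 0.425). For both kinases the shFTO libraries lay above the shCtrl libraries. The LATS cofactor gene MOB1A and the kinase gene TNIK had differences of -0.09 and -0.17.

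STRIPAK, a phosphatase complex that removes activating phosphates from STK3 and STK4, had 7 of 17 tested genes with a positive difference and a median of -0.07. Without shCtrl replicate 1 the count was 11 and the median 0.06, and without either shFTO library the median was also above 0. SIKE1, a subunit that links the kinases to the complex, had 24.2 and 37.6 FPKM in shFTO, against 16.3 and 14.1 FPKM in shCtrl (difference 0.95, limma adjusted p = 0.286). The kinase gene STK25 had 16.6 and 11.2 FPKM in shFTO, against 9.09 and 9.28 FPKM in shCtrl (difference 0.52). STK26 and MOB4 were at the low end, with differences of -0.16 and -0.15 and overlapping groups, and MOB4 shares its locus with a listed read-through gene.

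Among binders of YAP and TAZ and the machinery of their turnover, 6 of 16 tested genes had a positive difference, with a median of -0.10. AJUBA, a LIM protein that binds LATS kinases and restrains them, had 2.79 and 5.57 FPKM in shFTO, against 14.5 and 13.4 FPKM in shCtrl (difference -1.58, limma adjusted p = 0.174). The groups were far apart, but AJUBA shares its strand and locus with AL132780.3, so its value is uncertain. Its relative LIMD1 and the ubiquitin ligase gene BTRC were at the high end, with differences of 0.22 and 0.20 and overlapping groups. YWHAB, which encodes a protein that retains phosphorylated YAP in the cytoplasm, had 21.2 and 75.4 FPKM in shFTO, against 53.2 and 47.8 FPKM in shCtrl. The shFTO libraries thus differed from each other more than the groups did.

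Among TEAD cofactors, 12 of 15 tested genes had a positive difference, with a median of 0.12. ZEB1, a repressor that can act with YAP as an activator, had 3.79 and 7.25 FPKM in shFTO, against 3.75 and 2.80 FPKM in shCtrl (difference 0.57, limma adjusted p = 0.548). JUN, an AP-1 subunit that shares enhancers with TEAD, had 84.5 and 89.6 FPKM in shFTO, against 60.3 and 64.0 FPKM in shCtrl (difference 0.48, limma adjusted p = 0.305). NCOA1 and TCF7L2 were at the low end, at -0.10 and -0.04.

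Most YAP/TEAD target genes had negative differences, unlike TEAD1. Of 21 tested, 15 had a negative difference and 6 a positive one, with a median of -0.20, and 53.8% of all genes tested had a positive one. Without shFTO replicate 2 the positive ones were 3. Groups did not overlap for 12 of the 21, with shFTO below in 11 (18.1% of all genes tested lay below). ANKRD1, a stress-responsive muscle repeat protein gene, had 22.0 and 9.24 FPKM in shFTO, against 136 and 122 FPKM in shCtrl (difference -3.08, limma adjusted p = 0.104). CRIM1, a growth factor binding protein gene, had 60.9 and 33.0 FPKM in shFTO, against 91.2 and 77.9 FPKM in shCtrl. CTGF, named after its values were seen, had 146 and 149 FPKM in shFTO, against 250 and 246 FPKM in shCtrl (difference -0.75, limma adjusted p = 0.159). Other well-known targets on the list lay closer to their controls. CYR61 had a difference of -0.36 with shFTO below. AMOTL2 (-0.01) and LATS2 (0.08) had overlapping groups. No target passed. Without shFTO replicate 1 there were 3 that did, where 429 of all 10873 genes did, and without shFTO replicate 2 there were 3, where 217 of all genes did. Without shCtrl replicate 1 or shCtrl replicate 2, 0 targets and 0 of all genes passed by limma (509 and 584 of all genes at an unadjusted p under 0.05). FOXF2 and NT5E were at the high end, with differences of 0.40 and 0.27. The windows of CTGF and ANKRD1 printed above hold 3 and 2 copies of GGAATG.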

How the data were processed

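Poly(A) RNA of 2 shFTO and 2 shCtrl libraries of 143B cells was sequenced on an Illumina HiSeq instrument, with dUTP in the second cDNA strand, as the labels' protocols state. Tools listed without roles were STAR 2.5.2b, HISAT2 2.0.5, StringTie and cutadapt, with the build hg19, per the submitters' processing notes. The authors deposited FPKM per library for 11972 protein-coding genes, per the file headers. The deposited group columns hold means of log2(FPKM + 1), recomputed here, and the deposited log2 fold change, fold ratio, p-value and q-value are the authors' own comparison. Depth is unknown: among 850 to 1144 genes under 1 FPKM per library pair, at most 5 shared a ratio to 4 digits, so whole reads were not recovered.

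The 10873 genes that reached 1 FPKM in 2 or more libraries entered a limma fit (limma 3.58.1, R 4.3.3) of log2(FPKM + 1). The pseudocount was thus 1, the variance followed a trend with the mean, and no block was used. Calls needed a p under 0.05 after Benjamini-Hochberg adjustment. Differences are shFTO minus shCtrl and understate changes of low genes. The procedure was tested on simulated data in which every gene had the same spread. That test cannot show how it performs where the spread differs between genes or groups. No pair of libraries shared a nonzero value, so all 4 were kept. The 10 genes, the 6 lists and the tests were chosen with earlier results of these data known. Of each list, the genes with the 2 highest and 2 lowest differences and any past the threshold were to be named, and other genes were added for their role after their values were seen. Coordinates of genes are hg19. Those of printed sequences are GRCh38, from RefSeq and GENCODE 29, and were matched by symbol or gene ID, with 99.3% of tested genes matched to a transcript. Alternatives covered the pseudocount, the filter, scaling, the variance trend, a replicate block, the threshold and leaving out each library.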

Additional observations from a re-analysis of the deposited data

How the results depend on the processing

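The difference of TEAD1 kept its sign under all 12 alternatives. It passed in 3 of them: with the replicate number as a block (2.07, limma adjusted p = 0.0410) and without either shFTO library, and leaving out 1 library gave 1.75 to 2.38. Accordingly the number of the 10 genes called was 1 with the replicate block and 0 to 1 when 1 library was left out, against 0. The replicate numbers pair nothing that the labels state. The deviations of same-numbered libraries correlated at r = -0.19 across genes, so a block with crossed numbers was added after seeing the data, which called 0 genes (1430 at an unadjusted p under 0.05). Of all 10873 genes limma called 3. It called 15 with the replicate block, 1 with no filter, 1 with median-ratio scaling, 1 without a trend, 0 with a pseudocount of 0.1 (1167 at an unadjusted p under 0.05), 1180 at an unadjusted p under 0.05, and 0 to 429 when 1 library was left out (509 and 584 at an unadjusted p under 0.05 where it was 0).

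YAP1, WWTR1, TEAD2, TEAD4 and STK4 kept their sign under every alternative run on them. Small differences reversed. TEAD3 was -0.014 without shFTO replicate 2 (-0.014 to 0.31 when 1 library was left out), and LATS1 was 0.058 without shCtrl replicate 1 (-0.27 to 0.058). STK3 was -0.067 with quantile normalization and -0.016 with median-ratio scaling, and ranged from -0.10 to 0.12 when 1 library was left out. SAV1 was -0.026 with median-ratio scaling and ranged from -0.13 to 0.14. The causes were not tested. TEAD2 and STK3 could not be fitted at a mean of at least 5 FPKM, which neither reached. Groups did not overlap for 6 of the 10 genes with quantile normalization and 4 with median-ratio scaling. The share over all genes tested was not computed under these scalings, so these counts have no background beside them. With 1 library left out, genes with a positive difference numbered 4 to 10 at the LATS level, 8 to 11 in STRIPAK and 3 to 7 among targets. TEAD1 differs between shFTO libraries by 1.59 times, and 2 libraries a group limit the precision of every value.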
